A study of Mus musculus with 4 samples.

Results

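The Ly6 surface antigens are small proteins built on the LY6/uPAR domain, a fold of finger-like loops held together by disulfide bonds between cysteines, and most of them sit in the outer face of the membrane on a lipid (GPI) anchor. They were described here as 9 genes of 55467 in the files: Ly6a, Ly6c1, Ly6c2, Ly6e, Ly6h, Ly6k, Lynx1, Lypd6 and Ly6g6e. The genes were looked up by name, and each name stood on 1 row in every library. The set was chosen by family with levels of these same libraries, wild type (WT) and knockout of CD38 (CD38 KO), already known, Ly6a among them as a strong decrease. Differences between the genotypes in these 9 genes are therefore given as a description, with no p. Where it is said below whether limma, a linear model fitted across all genes, called one of them, that too is a description and supports nothing.

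The libraries came from primary astrocyte cultures of newborn mouse cortex, 2 from WT and 2 from CD38 KO, a genotype that lacks an NAD+-consuming enzyme of the cell surface. Pups were 1 to 3 days old, cells grew for 14 days in 10% fetal bovine serum, flasks were shaken for 12 h, and the cells left behind were replated and harvested after 5 days, in both genotypes alike. The labels give no treatment, no strain, no deleted exons and no statement on whether replicates were separate animals or cultures, so genotype and strain cannot be told apart and the spread between replicates may be technical. Values are FPKM, fragment counts scaled to transcript length and to the size of the library, so levels of different genes can be set side by side. Depth recovered from the steps of low values ran from 26849000 fragments (WT 1) to 29090000 (CD38 KO 2). Cd38 itself was at 3.13 and 3.45 FPKM in WT but at 0.0222 FPKM in both CD38 KO libraries, so the libraries matched their labels. All 14 astrocyte markers of a list were above the level tested, and they summed to 5274 to 5297 FPKM in WT against 4313 to 4459 FPKM in CD38 KO.

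Members of the family have different known roles. Ly6a (Sca-1) and Ly6c1/Ly6c2 (the Ly-6C antigen) mark stem and progenitor cells, leukocytes and brain endothelium and are induced by interferons, and the Ly6a and Ly6c loci are known for alleles that differ between inbred mouse strains. Ly6e (TSA-1, Sca-2) is a broadly expressed, interferon-inducible antigen known as a restriction factor for coronavirus entry and as a receptor for syncytin-A in placenta. Lynx1 and Ly6h are prototoxins of the brain that modulate nicotinic acetylcholine receptors, Lypd6 binds the Wnt co-receptor Lrp6, Ly6k acts in sperm and Ly6g6e lies in the major histocompatibility region.

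The family trait can be read in the coding sequences of the 3 most abundant members. Each line gives coding bases 1 to 180 of the annotation's principal transcript, 5′ to 3′, joined across introns, with in-frame cysteine codons (TGT or TGC) in capitals. The stretches come from GENCODE M21 on GRCm38 and span chr15:74996459-74997604 on the minus strand for Ly6a, chr15:74957808-74958378 on the plus strand for Ly6e and chr15:74751402-74751906 on the minus strand for Lynx1.
Ly6a: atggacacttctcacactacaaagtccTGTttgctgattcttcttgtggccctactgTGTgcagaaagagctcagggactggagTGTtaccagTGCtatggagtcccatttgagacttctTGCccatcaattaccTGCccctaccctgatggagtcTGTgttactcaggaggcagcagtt
Ly6e: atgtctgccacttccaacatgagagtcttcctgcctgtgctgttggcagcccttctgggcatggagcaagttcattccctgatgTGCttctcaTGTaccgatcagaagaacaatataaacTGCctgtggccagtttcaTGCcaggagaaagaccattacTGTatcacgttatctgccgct
Lynx1: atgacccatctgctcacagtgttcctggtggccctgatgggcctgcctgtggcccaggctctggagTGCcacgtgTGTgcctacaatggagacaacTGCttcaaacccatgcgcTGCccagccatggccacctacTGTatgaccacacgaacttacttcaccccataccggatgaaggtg
These stretches hold 7 cysteine codons in Ly6a, 5 in Ly6e and 5 in Lynx1. Over the whole coding sequence Ly6a has 12 such codons in 134, Ly6e 10 in 136 and Lynx1 10 in 116. The other 6 members have 10 (Ly6g6e) to 15 (Lypd6), in coding sequences of 131 (Ly6c1 and Ly6c2) to 171 codons (Lypd6). All these counts take in every in-frame cysteine codon, and the borders of the LY6/uPAR domain were not marked. Codons outside the domain may be among them, so differing counts do not show a different fold. Aligned base by base, with gaps counted as differences, Ly6a was 53.8% identical to Ly6e and 53.3% to Lynx1. These values lie little above those of Ly6a with Ly6h, Ly6k, Lypd6 and Ly6g6e, from 47.6% (Ly6k) to 50.4% (Ly6g6e).

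Ly6c1 and Ly6c2 are shown because their coding sequences are nearly the same, so that part of their reads can match both genes. The same 180 coding bases follow, from chr15:75047360-75048511 and chr15:75110518-75111667, both on the minus strand, with the 6 bases that differ in capitals.
Ly6c1: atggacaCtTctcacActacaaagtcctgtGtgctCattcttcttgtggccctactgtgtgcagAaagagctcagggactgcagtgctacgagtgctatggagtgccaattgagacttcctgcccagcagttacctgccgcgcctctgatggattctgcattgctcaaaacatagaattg
Ly6c2: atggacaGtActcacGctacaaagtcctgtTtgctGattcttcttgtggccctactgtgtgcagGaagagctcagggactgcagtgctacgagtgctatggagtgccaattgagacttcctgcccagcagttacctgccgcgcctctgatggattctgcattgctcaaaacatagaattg
Their whole coding sequences are 97.7% identical, with 9 mismatches in 396 bases, and Ly6a is 82.0% identical to Ly6c1 and 81.7% to Ly6c2. Of the 50-base words in the coding transcripts, 32.8% in Ly6c1, 31.2% in Ly6c2 and 19.0% in Ly6a also occur in transcripts of another gene. The share is 32.7% in Ly6k and 13.0% in Ly6g6e, there with a gene that overlaps on the other strand. It is 0.248% in Ly6h, and no such words occur in Ly6e, Lynx1 and Lypd6. How the authors treated reads with several matches is not given in the sources used here. Values of Ly6c1, Ly6c2 and Ly6k, and to a lesser degree of Ly6a and Ly6g6e, are uncertain in this respect. Ly6c1 was at most 0.417 FPKM in any library, Ly6i, another gene that shares words with Ly6a, was at 0.0821 FPKM in WT 1 and listed at 0 in the other libraries, and Ly6c2 was listed at 0 throughout.

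Ly6a and Ly6e were much lower in CD38 KO, Lynx1 was slightly higher, and the other 6 genes were low or near absent in both genotypes. Of the 9 genes, 4 reached the mean of 1 FPKM required for testing across all genes (Ly6e, Lynx1, Ly6a and Lypd6). Lypd6 lay just inside this limit with a mean of 1.51 FPKM and Ly6g6e just outside with 0.461 FPKM. Limma called 2 of the 4 (Ly6a and Ly6e), where it called 14.4% of all 13064 tested genes in either direction. Both were called lower, as were 6.35% of all tested genes. Since the contrast was in view when the genes were chosen, nothing is read from these counts. The median log2 change of the 4 was -1.03 and that of all tested genes 0.00. In all 4 the WT and CD38 KO values did not overlap, as was the case in 59.9% of tested genes.

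**Figure D1:**
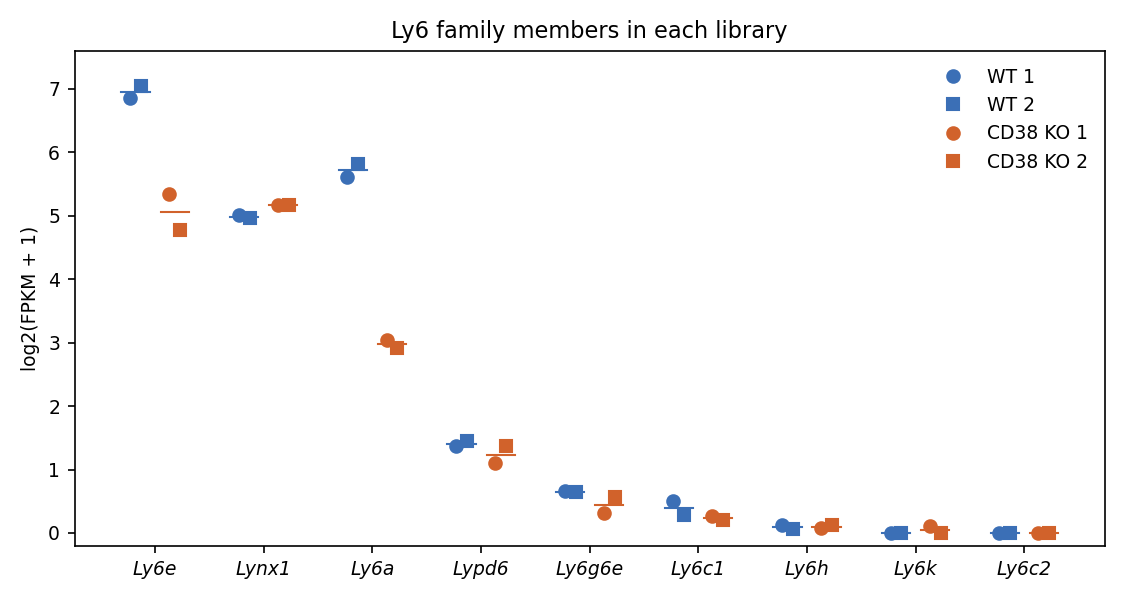
The vertical axis gives log2(FPKM + 1) for each of the 9 genes, with circles for replicate 1 and squares for replicate 2, WT in blue and CD38 KO in orange, and short lines at the group means. Ly6e and Ly6a are lower in both CD38 KO libraries, Lynx1 lies close together in all 4, and Ly6c2 is listed at 0 in every library.

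Ly6a (ENSMUSG00000075602, chr15:74994877-74998031, minus strand) was at 48.0 and 55.3 FPKM in WT 1 and WT 2 against 7.22 and 6.57 FPKM in CD38 KO 1 and CD38 KO 2. Both CD38 KO libraries lay far below both WT libraries and close to each other. The mean went from 51.7 ± 5.19 to 6.90 ± 0.460 FPKM (SD, n = 2 each), 7.49-fold lower, and the fold between single libraries ran from 6.65 to 8.42. The log2 change in log2(FPKM + 1) was -2.74, the 16th most negative of all tested genes. In WT, Ly6a was above 85.9% of tested genes by mean FPKM, and in CD38 KO above 33.3%. The transcripts did not disappear from CD38 KO. Depending on which annotated coding transcript the reads came from, 7.22 FPKM stands for 34.8 to 165 fragments.

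Ly6e (ENSMUSG00000022587, chr15:74955051-74959905, plus strand) was the most abundant member in WT, at 114 and 131 FPKM, against 39.7 and 26.5 FPKM in CD38 KO. The genotypes did not overlap, and the CD38 KO libraries differed from each other by more, in proportion, than the WT libraries did. The mean went from 123 ± 12.0 to 33.1 ± 9.34 FPKM (SD, n = 2 each), 3.71-fold lower (2.88 to 4.96 between single libraries), and the log2 change was -1.89, the 49th most negative. Ly6e is the nearest of the 9 genes to Ly6a on the side of Lynx1 and is read from the opposite strand.

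Lynx1 (ENSMUSG00000022594, chr15:74747852-74753046, minus strand) lies in the same cluster of genes and was not lower in CD38 KO. It was at 31.3 and 30.1 FPKM in WT against 34.9 and 35.1 FPKM in CD38 KO. The CD38 KO values were both above the WT values, by a small margin. The mean went from 30.7 ± 0.813 to 35.0 ± 0.113 FPKM (SD, n = 2 each), 1.14-fold higher, with a log2 change of 0.18 that limma did not call.

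Lypd6 (ENSMUSG00000050447, chr2:50066429-50193569, plus strand) was at 1.58 and 1.73 FPKM in WT against 1.15 and 1.58 FPKM in CD38 KO. WT 1 and CD38 KO 2 were nearly equal, at a ratio of 1.003, and only CD38 KO 1 stood apart. The log2 change was -0.17 and was not called. Without CD38 KO 1 it was -0.04.

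The remaining 5 genes rest on few fragments and give no usable comparison. Ly6g6e (chr17:35076902-35078804, plus strand) was at 0.574 and 0.556 FPKM in WT against 0.239 and 0.474 FPKM in CD38 KO, which stands for at most 15.3 fragments in any library. It overlaps Ly6g6d on the other strand, and whether the authors' counting used strand is not given in the sources used here. Ly6g6d was at 1.21 and 1.19 FPKM in WT against 1.46 and 1.18 FPKM in CD38 KO and was not called (limma adjusted p = 0.748). Ly6c1 (chr15:75044018-75048830, minus strand) was at 0.417 and 0.212 FPKM in WT against 0.204 and 0.154 FPKM in CD38 KO, at most 7.56 fragments, and WT 2 and CD38 KO 1 were nearly equal.

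Ly6h (chr15:75551268-75567255, minus strand), a prototoxin of neurons, was at 0.0910 and 0.0480 FPKM in WT against 0.0508 and 0.0932 FPKM in CD38 KO, so the genotypes overlapped. Ly6k (chr15:74796874-74799986, minus strand) was listed at 0 in WT 1, WT 2 and CD38 KO 2 and at 0.0779 FPKM in CD38 KO 1, which stands for 0.999 to 1.40 fragments, about a single read pair. An antisense transcript, Gm17189, overlaps it and was listed at 0 in all libraries. Ly6c2 (chr15:75108158-75111970, minus strand) was listed at 0 in all 4 libraries.

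The order of the levels differed between the genotypes. In WT it ran Ly6e, Ly6a, Lynx1, Lypd6, Ly6g6e, Ly6c1, Ly6h, and no neighbours in this order overlapped between libraries. In CD38 KO, Lynx1 and Ly6e shared the top with overlapping values, and Ly6a came next. Within single libraries the ratio of Ly6e to Lynx1 in FPKM was 3.66 and 4.36 in WT and 1.14 and 0.755 in CD38 KO. The ratio of Ly6a to Lynx1 was 1.54 and 1.84 in WT and 0.207 and 0.187 in CD38 KO. Ly6a was lower in proportion than Ly6e, so that the ratio of Ly6e to Ly6a went from 2.38 and 2.37 in WT to 5.50 and 4.03 in CD38 KO.

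**Figure D2:**
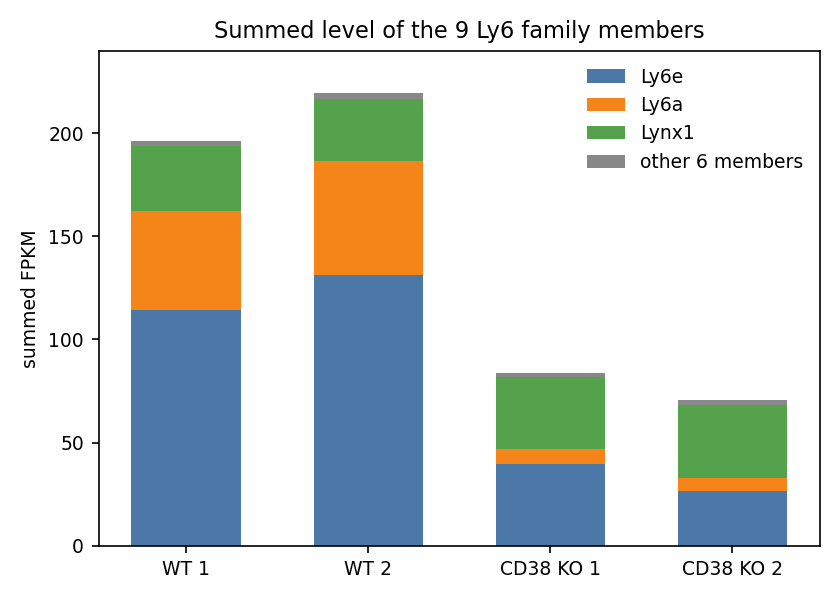
Bars give the summed FPKM of the 9 genes in each library, starting at 0, with Ly6e, Ly6a and Lynx1 in colour and the other 6 genes in grey. The sum was 196 and 219 FPKM in WT and 83.5 and 70.4 FPKM in CD38 KO, and the share of Lynx1 was 15.9% and 13.7% in WT and 41.8% and 49.8% in CD38 KO.

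Of the 9 genes, 7 lie within 0.819 Mb of chromosome 15, from Lynx1 to Ly6h. The files hold 36 further genes in this interval, and 0 of them reached the level tested, so Ly6a, Ly6e and Lynx1 were the only genes there that could be compared. Among the 41 tested genes within 1 Mb to either side, 4 were called higher and 1 lower, and 36 were not called. Their median log2 change was 0.01. Of all 13064 tested genes 14.4% were called in either direction, and 6.35% were called lower. The called genes, named after their values were seen, were Adgrb1, Mapk15, Gm23027 and Cyc1 on the higher side and Scx on the lower, with changes from -0.57 to 2.09. The calls of Adgrb1, Mapk15, Cyc1 and Scx ended in all 4 fits without 1 library (limma adjusted p up to 0.155), and that of Gm23027 without CD38 KO 1 and without CD38 KO 2 (up to 0.245). No tested gene of the flanks was lowered as far as Ly6e or Ly6a, the lowest being Scx at -0.57. Since Ly6a was known as a strong decrease when the genes were chosen, nothing is read from this contrast.

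**Figure D3:**
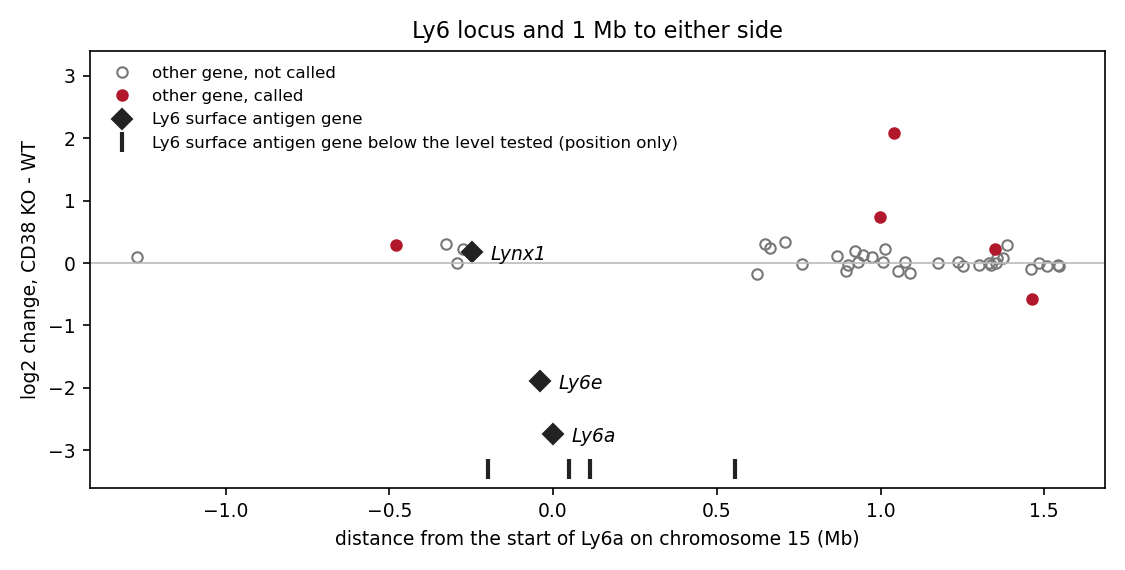
The horizontal axis is the distance in Mb from the start of Ly6a, the vertical axis the log2 change of tested genes, with diamonds for Ly6a, Ly6e and Lynx1, filled circles for other called genes, open circles for genes not called, and ticks at the position of the 4 Ly6 genes too low to test. Ly6a at -2.74 and Ly6e at -1.89 stand below all other genes drawn, and Lynx1 at 0.18 lies among them.

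In the rest of the LY6/uPAR family the measurable decreases were in the Cd59 genes, which encode GPI-anchored inhibitors of the complement membrane attack complex. Of 37 other family genes in the files, 19 were listed at 0 in all libraries and 3 were tested; limma called 2 of these lower and 0 higher (2 and 0 at an unadjusted p under 0.05). Cd59a was at 31.9 and 29.3 FPKM in WT against 22.0 and 23.3 FPKM in CD38 KO (log2 change -0.42, SE 0.06, limma adjusted p = 0.0128). Cd59b was at 4.13 and 3.10 FPKM in WT against 1.32 and 1.30 FPKM in CD38 KO (log2 change -0.99, SE 0.14, limma adjusted p = 0.00998). The calls are not firm. That of Cd59a ended without WT 1, CD38 KO 1 or CD38 KO 2 (adjusted p up to 0.116) and that of Cd59b without CD38 KO 1 or CD38 KO 2 (up to 0.0944). The genes are close copies, so reads may be split between them. The other tested gene was Ly6g6d, given above. Among the untested, Plaur, the urokinase receptor, was picked after its values were seen, at 0.203 and 0.358 FPKM in WT and 1.02 and 1.04 FPKM in CD38 KO.

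Nicotinic receptor subunits, the partners of the prototoxins Lynx1 and Ly6h, were scarce. Of 16 subunit genes 2 were tested and 0 were called by limma (0 at an unadjusted p under 0.05). Chrnb1 was at 2.09 and 1.71 FPKM in WT against 1.87 and 1.92 FPKM in CD38 KO. Chrna7 was at 1.22 and 1.14 FPKM in WT against 1.57 and 1.63 FPKM in CD38 KO (limma adjusted p = 0.23). Among the untested, Chrna4, picked after its values were seen, was at 1.23 and 1.35 FPKM in WT against 0.438 and 0.266 FPKM in CD38 KO. Of all 16 subunits, 1 was higher in both CD38 KO libraries than in both WT libraries, 2 were lower and 13 overlapped. Among all tested genes the groups did not overlap in 59.9%, and most subunits were below the level tested. Lrp6, the partner of Lypd6, was at 13.5 and 12.5 FPKM in WT against 13.8 and 13.1 FPKM in CD38 KO, overlapping between genotypes. Genes that build and attach GPI anchors summed to 555 to 557 FPKM in WT against 543 to 562 FPKM in CD38 KO, with 1 of 26 tested genes called lower and 0 higher by limma (4 and 1 with an unadjusted p below 0.05) and a median log2 change of -0.05. The called gene was Pigu, a subunit of the GPI transamidase (log2 change -0.25, SE 0.05, adjusted p = 0.0354), which lost its call in all 4 fits without 1 library (up to 0.174).

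Ly6a and Ly6e belong to the genes that interferons induce, and other such genes were looked at through a list of the interferon response without Ly6 genes. Of its 28 tested genes, limma called 1 higher and 1 lower (7 and 2 with an unadjusted p below 0.05), and the median log2 change was 0.08. It was -0.10 without CD38 KO 1, -0.06 without WT 1, 0.25 without WT 2 and 0.28 without CD38 KO 2. The GTPase gene Iigp1 rose from 5.98 and 7.12 FPKM in WT to 11.6 and 11.1 FPKM in CD38 KO (log2 change 0.71, SE 0.09, limma adjusted p = 0.00753), a call that ended without CD38 KO 1 or CD38 KO 2 (up to 0.102). The transcription factor gene Irf1 was at 42.2 and 44.7 FPKM in WT against 37.6 and 34.9 FPKM in CD38 KO (log2 change -0.25, SE 0.06, limma adjusted p = 0.0455), a call that ended in all 4 fits without 1 library (up to 0.2).

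**Figure D4:**
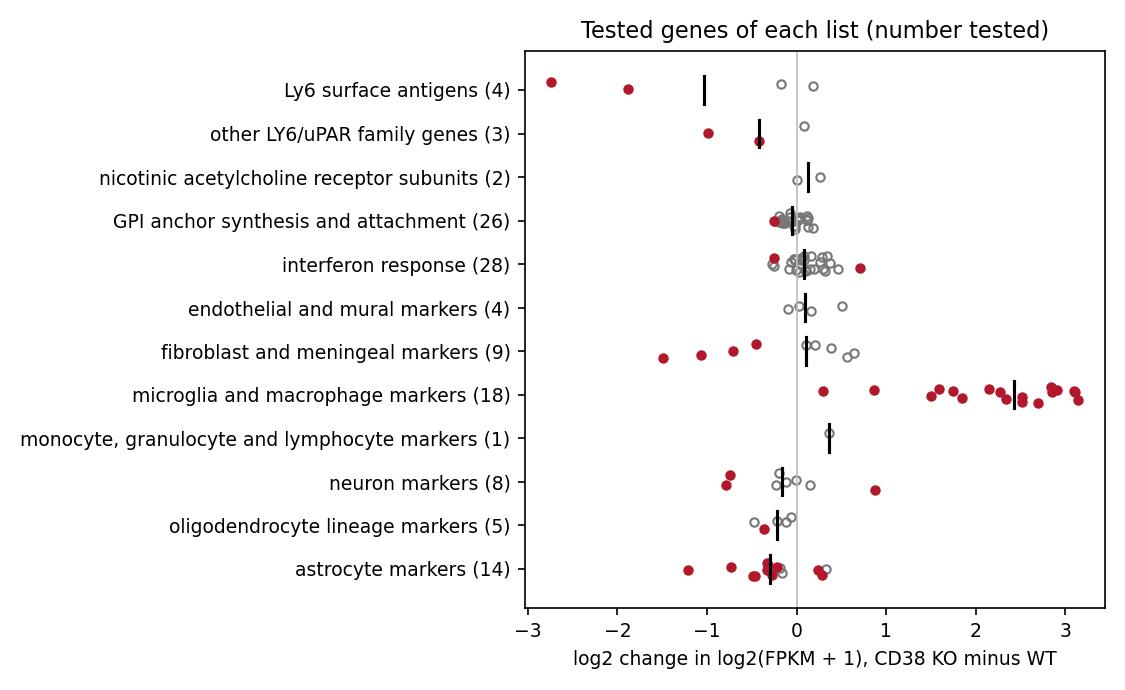
Each point is a tested gene, placed by its log2 change in log2(FPKM + 1) between CD38 KO and WT and by its list, with the number tested in brackets, filled where called and open where not, and a black line at the list's median. Ly6a and Ly6e lie at -2.74 and -1.89, the interferon response genes centre on 0.08, and the microglia and macrophage markers centre on 2.42.

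Markers of cell types known for Ly6 antigens were looked at beside these values. In bulk RNA, fewer cells of a type and less RNA per cell cannot be told apart. Endothelial and mural markers summed to 148.5 to 160 FPKM in WT against 166 to 181 FPKM in CD38 KO, and 0 of 4 tested were called by limma (2 higher at an unadjusted p under 0.05). Most of that sum was Slco1a4, at 131 to 159 FPKM, and Pdgfrb, at 9.45 to 10.5 FPKM, came next. Of all 18 markers of the list, tested or not, 10 were higher in both CD38 KO libraries than in both WT libraries. Another 2 were lower and 6 overlapped. The groups did not overlap in 59.9% of all tested genes, so nothing is read from this count. Among the defining endothelial markers, picked after their values were seen, Cldn5 was listed at 0 except in WT 2, at 0.0284 FPKM. Pecam1 was at 0.542 and 0.214 FPKM in WT against 1.39 and 1.10 FPKM in CD38 KO, and Cdh5 was at 0.0681 and 0.111 FPKM in WT against 0.252 and 0.520 FPKM in CD38 KO. Both were low and higher in CD38 KO. Kdr, also low, went the other way, at 0.181 and 0.160 FPKM in WT against 0.0419 and 0.0896 FPKM in CD38 KO. The part of endothelial cells in the Ly6a values was not tested. Markers of monocytes, granulocytes and lymphocytes summed to at most 2.71 FPKM in any library, with 6 of 18 listed at 0 throughout (Cd3e, Cd3g, Elane, Mpo, Ngp and S100a9), and 0 of 1 tested was called by limma (0 at an unadjusted p under 0.05).

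Some fibroblast and meningeal markers were lower in CD38 KO, as Ly6a and Ly6e were, and others were higher. The list summed to 977 to 980 FPKM in WT against 602 to 612 FPKM in CD38 KO, and limma called 4 of 9 tested genes lower and 0 higher (4 and 1 at an unadjusted p under 0.05). The lower genes were Islr (log2 change -1.49, adjusted p = 8.47e-05), Thy1, Col6a1 and Pdgfra, while the median was 0.10. Without 1 library the lower calls numbered 2 to 4, and the median was -0.40 without CD38 KO 1, -0.15 without WT 1, 0.30 without WT 2 and 0.37 without CD38 KO 2. The collagen gene Col1a1 was at 12.0 and 14.8 FPKM in WT against 26.4 and 17.1 FPKM in CD38 KO, and Dcn was at 0.843 to 3.56 FPKM over the libraries. Thy1 and Islr made up most of the sum, and the lower sum in CD38 KO rests on them. Thy1 was at 464 and 449 FPKM in WT against 322 and 346 FPKM in CD38 KO. Islr was at 417 and 406 FPKM in WT against 141 and 152 FPKM in CD38 KO. Fn1, Col1a2 and Col3a1 overlapped between genotypes, with higher means in CD38 KO. Of all 14 markers of the list, tested or not, 4 were higher in both CD38 KO libraries than in both WT libraries. Another 4 were lower and 6 overlapped, where 59.9% of all tested genes did not overlap. The part of fibroblasts and meningeal cells in the lower Ly6a and Ly6e values was not tested. Microglia and macrophage markers moved the other way, from a sum of 176 to 191 FPKM in WT to 903 to 1014 FPKM in CD38 KO, with 18 of 18 tested genes called higher (16 in each fit without 1 library), and their part in the Ly6 values was not tested either.

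For each tested Ly6 gene, the genes whose pattern over the 4 libraries lay closest were found by the Euclidean distance between centred log2(FPKM + 1) values. With 4 libraries this mostly orders genes by the size of their change, and it carries no test. Closest to Ly6a were Gbp10, an interferon-induced GTPase (distance 0.256), Snora64 (0.426) and Retsat (0.453). Gbp10, which is not on the interferon response list, was at 9.42 and 11.1 FPKM in WT against 0.430 and 0.403 FPKM in CD38 KO. Closest to Ly6e were Kcnip1 (0.291), Tlr1 (0.303) and Rpl26 (0.402). Kcnip1 was at 27.3 and 28.2 FPKM in WT against 8.33 and 6.89 FPKM in CD38 KO. Lynx1 lay closest to Sphk1 (0.00695), Ece2 and Gpi1, and Lypd6 to Zfp810 (0.0165), Riox1 and Slc22a18.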

How the data were processed

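The deposited values are FPKM per gene, 1 table per library, per the file headers. Cufflinks 2.2.1, STAR 2.7.0f, bcl2fastq 2.17 and the build GRCm38 are listed in the submitters' processing notes, with no annotation release. Gene positions came from GENCODE M21, which matched 55226 of 55467 gene IDs. The 13064 genes whose mean FPKM across libraries reached 1 entered a limma 3.58.1 fit (R 4.3.3) of log2(FPKM + 1) on genotype, with a trended prior. P-values were adjusted by Benjamini-Hochberg over all of them, and a gene is called at an adjusted p under 0.05. Folds are ratios of mean FPKM without the added 1, while log2 changes include it and understate low genes. The fit was tested on simulated data.

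Depth was recovered from 17748 genes with 1 annotated transcript of over 600 bases. Of values under 10 fragments, 91.7% to 92.4% lay within 0.1 of a whole number of fragments. Fragments per Ly6 gene are a range over its annotated coding transcripts. A count test was not run, because step sizes of genes with several transcripts are unknown. Coding sequences were aligned with Biopython 1.88; other steps used Python 3.11.15. Promoter sequences were not used here.

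The genes and lists were chosen with earlier results of these data known. Named genes were the 9 Ly6 genes, genes of most lists, the 3 closest patterns and Cd38. From most lists came the called genes (up to 4 of smallest p), or the 2 most abundant where none was called. No gene is named of the microglia and macrophage list or of the astrocyte list. Of the monocyte, granulocyte and lymphocyte list only the genes listed at 0 throughout are named. Others are said to be picked after their values were seen, as were Col1a1, Col1a2, Col3a1, Fn1, Dcn, Lrp6, Cldn5, Cdh5, Pecam1, Kdr, Chrna4 and Ly6i. Of 8 tested neuron markers 1 was called higher (Stmn2) and 2 lower (Gad1 and Camk2a), of 5 oligodendrocyte lineage markers 0 higher and 1 lower (Olig2), and of 14 astrocyte markers 2 higher and 9 lower. Alternatives were other pseudocounts, filters, scalings, priors, a replicate block and each library left out.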

Additional observations from a re-analysis of the deposited data

How the results depend on the processing

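The 9 Ly6 genes were chosen with their values known, so how their values move with the processing is a description and no support for them. The log2 change was followed over the alternatives in which each gene was tested, 14 for Ly6a, Ly6e and Lynx1 and 13 for Lypd6. Filters, priors and replicate blocks cannot move it, so its range comes from pseudocounts, scalings and left-out libraries only. It ran from -2.89 to -2.64 for Ly6a and from -2.17 to -1.60 for Ly6e. For Lynx1 it ran from 0.16 to 0.21 and for Lypd6 from -0.31 to -0.04. Over all genes, 1045 higher and 830 lower calls became 306 to 458 and 225 to 284 with 1 library left out, where fewer samples are fitted, and 1980 and 1467 with no filter. Other family genes called lower (2) numbered 1 at a filter of 5 FPKM, which tests fewer genes, and 0 to 2 with 1 library left out; with no filter 1 (Plaur) was called higher. Genes around the locus called higher (4) numbered 2 at the 5 FPKM filter, 2 with quantile normalization, 1 without a trended prior and 0 to 1 with 1 library left out. Those called lower (1) numbered 0 at the 5 FPKM filter and 0 in every fit without 1 library. Interferon response genes called (1 higher, 1 lower) numbered 9 and 2 with no filter, 2 and 1 with a pseudocount of 0.1, the 5 FPKM filter or a robust prior, 1 and 2 with quantile normalization and 1 and 0 without a trended prior. Fibroblast and meningeal markers called (0 higher, 4 lower) numbered 5 and 4 with no filter. With no filter, genes with a mean under 1 FPKM enter the fit, and the limma adjusted p of Islr went from 8.47e-05 to 5.96e-221. At n = 2 per genotype such values do not measure the spread between replicates. Nothing is therefore read from any of the counts with no filter.

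Replicate numbers do not mark a known pairing. Deviations of same-numbered libraries from their group means correlated at -0.161 over 13064 genes. With the replicate block 610 genes were called higher and 427 lower, and around the locus 0 and 0. With the numbers crossed, a choice made after seeing the data, 1102 genes were called higher and 859 lower. Around the locus 5 were then called higher and 0 lower. In the same fit 7 interferon response genes and 3 fibroblast and meningeal markers were called higher. Where a cause is not named here, the cause was not tested. Group size (n = 2) and the few fragments of Ly6g6e, Ly6c1, Ly6h, Ly6k and Ly6c2 limit what can be compared.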
